A study of Mus musculus with 4 samples.

Results

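The brown and beige fat genes described here are 10 genes that mark heat-producing adipocytes: Ucp1, Cidea, Cox8b, Cox7a1, Elovl3, Adrb3, Dio2, Prdm16, Ppargc1a and Ppargc1b. They were chosen by name, as the probes whose gene name on the array, current or older, was 1 of the 10, and 12 probes matched. Of these genes, 8 gave a signal well above background on at least 1 array, among 16649 genes that did so in all. RNA came from Sca-1+ cardiac mesenchymal progenitors (CMPs), which are expandable stromal cells of adult C57BL/6 mouse heart, taken in the study from mice 10 to 16 weeks of age. Single-colour arrays measured untreated CMPs, whose source label gives no day and which are listed here as day 0. They also measured CMPs that had received Oct4, Sox2, Klf4 and c-Myc by Sendai virus (OSKM-CMPs) at days 4, 6 and 8. For each array 250 ng of RNA was labelled. Every condition had 1 array, so no difference between conditions has a replicate check and no test across samples was possible. The errors given are 1 SD from the scanner software's model of a single array. All cells were expanded in growth medium with 10% fetal bovine serum and basic fibroblast growth factor (40 ng/ml in the labels, 20 ng/ml in the study's methods). OSKM-CMPs were moved at day 0 to a reprogramming medium without leukemia inhibitory factor, the medium of the untreated array sample is not stated apart from this growth medium, and no array of virus without the factors or of medium alone was analysed here. Factors, virus, medium and time in culture therefore cannot be told apart.

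Brown and beige adipocytes burn fuel to make heat. Uncoupling protein UCP1 lets protons leak across the inner mitochondrial membrane, so that oxidation runs without ATP synthesis. Cold-induced noradrenaline acts on β-adrenoceptors and raises cAMP, which drives lipolysis and the transcription of Ucp1 and Dio2, while PRDM16 and the PGC-1 coactivators build the thermogenic gene programme. Several of these genes also work outside brown fat: Cox7a1 and Cox8b are known as heart and skeletal muscle isoforms, and Adrb3 is high in mature white adipocytes of rodents.

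The probes behind the values are shown first, because each value is that of 1 stretch of a transcript and the 2 probes of Ppargc1a differed in whether they were detected. Positions are on mouse build mm9 as the array files give them, in lower case and in transcript direction. Probes of Ucp1 and Cox7a1 and the second probe of Adrb3 are given whole, and those of Cox8b, Prdm16, Dio2, Ppargc1a and the first of Adrb3 by their first 30 of 60 bases.
Ucp1 (chr8:85821788-85821847, plus strand): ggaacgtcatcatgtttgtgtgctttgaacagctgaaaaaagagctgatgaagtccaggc
Cox7a1 (chr7:30970337-30970948, plus strand): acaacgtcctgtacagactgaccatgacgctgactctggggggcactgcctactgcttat
Cox8b (chr7:148084852-148084911, minus strand): ctataaaaagagctccgcagcatgaagttg
Adrb3, probe 1 (chr8:28336268-28336327, minus strand): gggttcataggaagaagtcaaactattgga
Adrb3, probe 2 (chr8:28337864-28337923, minus strand): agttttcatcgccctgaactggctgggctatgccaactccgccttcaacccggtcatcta
Dio2 (chr12:91963235-91963294, minus strand): aatgataactactgacgaaagagctgtctg
Prdm16 (chr4:153690254-153690313, minus strand): ctggataccaaatgtaatctttccgatgct
Ppargc1a, probe 1 (chr5:51848928-51848987, minus strand): ccccttcaaatggcagcatttccatgaaga
Ppargc1a, probe 2 (chr5:51846926-51846985, minus strand): aggccaatgcagctaattttgacagctgca
The Cox7a1 probe covers 612 bases of the genome with 60 bases of sequence, so it reads across a splice junction. Both Ppargc1a probes lie on 1 strand 2002 bases apart, and both Adrb3 probes 1596 bases apart. No annotation of mm9 was used here, so the exon or untranslated region of the other probes is not given. The Elovl3 probe lies at chr19:46209762-46209821.

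Promoters of 6 of the 10 genes (Ucp1, Cox8b, Cox7a1, Dio2, Prdm16 and Ppargc1a) were read from RefSeq, build GRCm38.p6, as the 250 bases before the gene start. They were searched on both strands for the cAMP response element TGACGTCA, for its first 5 letters TGACG (which also lie within the whole element), for the PPAR element AGGTCANAGGTCA and for the oestrogen-related receptor element TCAAGGTCA. The whole cAMP element occurred in Dio2 alone among the 6, and in 1.55% of all 32851 promoters. Its 5-letter form occurred in Ucp1, Dio2 and Ppargc1a and in 17.8% of all promoters. Neither of the other motifs, held by 0.0335% and 0.387% of all promoters, had a match in these windows, and Cox8b, Cox7a1 and Prdm16 had no match to any of them. Dio2, Ucp1 and Cox8b are printed because cAMP is known to act on Dio2 and Ucp1 and because Cox8b had a large change, and capitals mark the matches.
Dio2 promoter (chr12:90739039-90739288, minus strand): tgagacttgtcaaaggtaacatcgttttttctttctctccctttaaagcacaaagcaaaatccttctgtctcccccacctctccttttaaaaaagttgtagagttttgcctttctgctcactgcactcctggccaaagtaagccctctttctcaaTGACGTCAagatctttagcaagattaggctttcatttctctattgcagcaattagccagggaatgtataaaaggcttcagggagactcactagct
Ucp1 promoter (chr8:83290098-83290347, plus strand): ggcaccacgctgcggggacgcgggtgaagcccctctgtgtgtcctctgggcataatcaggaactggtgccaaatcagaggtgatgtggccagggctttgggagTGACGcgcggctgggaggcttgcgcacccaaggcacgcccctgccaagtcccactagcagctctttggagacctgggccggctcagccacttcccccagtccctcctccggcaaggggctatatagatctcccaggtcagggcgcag
Cox8b promoter (chr7:140900447-140900696, minus strand): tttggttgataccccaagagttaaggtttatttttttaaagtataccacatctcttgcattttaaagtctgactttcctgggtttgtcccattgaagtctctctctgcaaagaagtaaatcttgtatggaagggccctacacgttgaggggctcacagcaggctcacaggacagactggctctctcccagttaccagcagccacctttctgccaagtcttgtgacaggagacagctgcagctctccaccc
A match is a run of letters and not a bound site, and the thermogenic enhancers known further upstream lie outside these windows.

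Signals below are the deposited processed intensities. Differences are on the log2 scale after each array was set to the 75th percentile of its own signals, which lay between 388 and 411. Of all probes, 56.5% to 59.6% were well above background on an array, and the dimmest such signal was 10.4 to 11.6. A gene that was below background in 1 of 2 conditions, as a whole or in 1 of its probes, has only a bound, written as "at least". Over all 16649 genes the median difference from control was -0.01 at day 4 and -0.03 at day 8, and the median error of a difference was 0.20.

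Ucp1, the uncoupling protein itself, was not detected. Its probe read 2.45 in untreated CMPs and 2.49, 2.68 and 2.46 in OSKM-CMPs at days 4, 6 and 8, below background on all 4 arrays and about as large as its own error of 2.45 to 2.69. Elovl3, a fatty acid elongase that cold induces in brown fat, read 2.91, 2.98, 3.15 and 2.91 and was below background on all 4 as well. No fold change can be given for either gene, and a transcript present at less than the dimmest detected signal would not have been seen.

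Cox8b, a subunit VIII isoform of cytochrome c oxidase found in muscle and brown fat, showed the largest day 8 change of the 5 genes detected on all 4 arrays. Its signal was 25.7 ± 3.41 in untreated CMPs, 176 ± 17.8 at day 4, 2451 ± 245 at day 6 and 5157 ± 516 at day 8. It was higher on each successive array, and the days did not overlap within these errors. Against untreated CMPs the log2 difference was 2.78 ± 0.24 at day 4, 6.51 ± 0.24 at day 6 and 7.57 ± 0.24 at day 8, which is 6.88-, 91.4- and 190.3-fold. At day 8 this was the 21st highest difference of 16649 genes, with genes below background in control ranked by their bounds. Of the day 8 log2 change, 36.7% was reached by day 4 and 86.0% by day 6, so most of the change followed day 4, with a day 8 over day 4 ratio of 27.7-fold.

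Cox7a1, the heart and muscle isoform of subunit VIIa, moved little. It was already bright in untreated CMPs at 315 ± 31.6 and read 436 ± 43.7, 417 ± 41.8 and 460.4 ± 46.1 at days 4, 6 and 8. Log2 differences were 0.47 ± 0.20, 0.34 ± 0.20 and 0.47 ± 0.20, under the 2-fold threshold at every time. Scaling the arrays to their medians moved the median of all genes at day 8 to -0.30 and Cox7a1 to 0.20.

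Cidea, a lipid droplet protein that helps droplets fuse in brown adipocytes, went from below background to a clear signal by day 4. The probe read 2.99 in untreated CMPs, then 152 ± 15.5, 164 ± 16.7 and 97.5 ± 10.2 at days 4, 6 and 8. These are at least 14.6-, 15.0- and 8.82-fold over control. Unlike Cox8b, Cidea was lower at day 8 than at day 4, where it fell by 0.72 ± 0.21 on the log2 scale, and it was nearly level between days 4 and 6. No probe sequence is printed for Cidea, whose probe lies on chromosome 18.

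**Figure D1:**
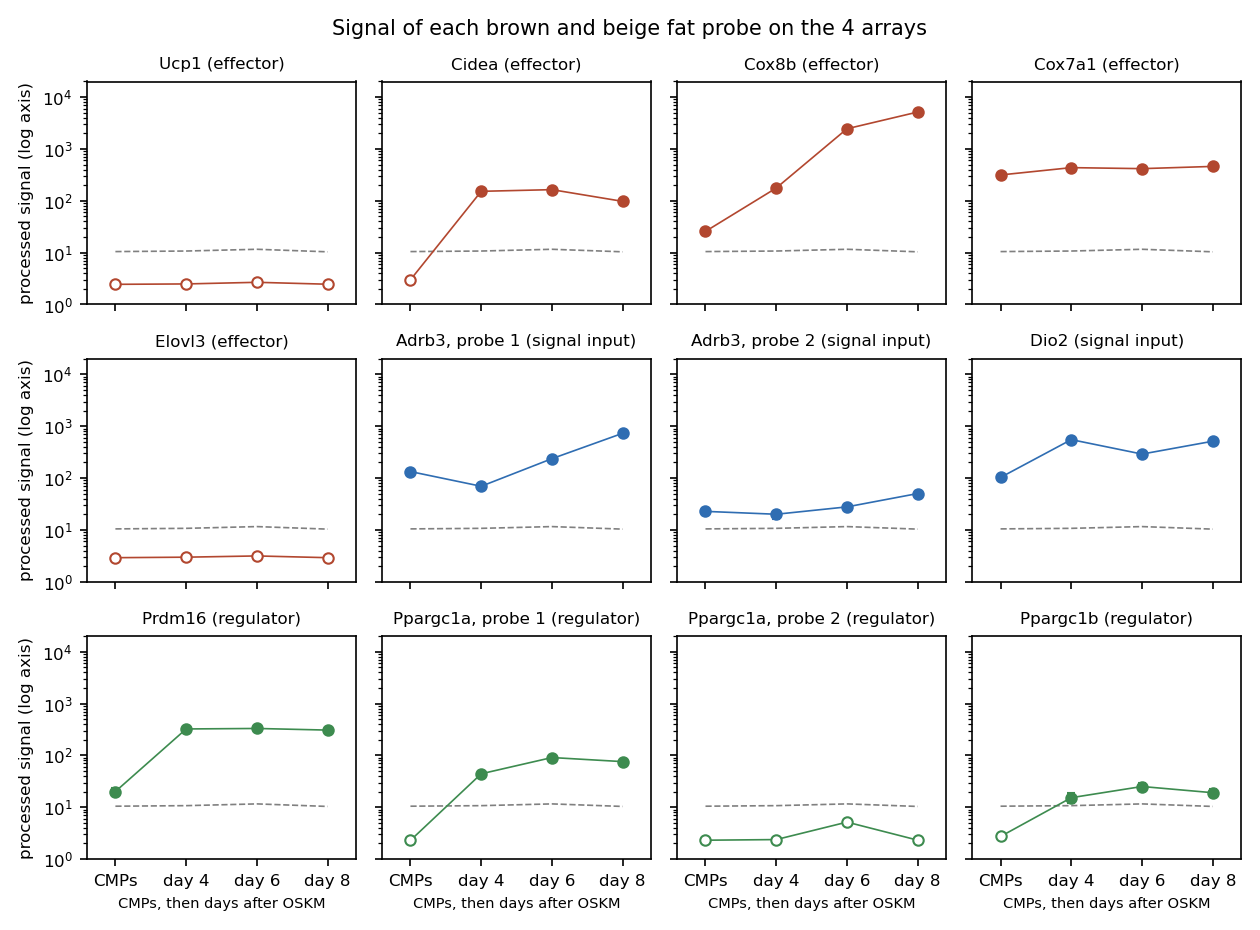
Processed signal (log axis, no unit) of the 12 probes on the 4 arrays, untreated CMPs first and then days 4, 6 and 8 after OSKM. Filled points are well above background with their error of 1 SD (mostly smaller than the point), open points are not, and the dashed line is the dimmest detected signal of each array. Ucp1 and Elovl3 stayed under that line, Cox8b climbed from 25.7 to 5157 and Prdm16 was level from day 4 at 324, 331 and 308.

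On the signal side, Dio2, the type II deiodinase that makes active thyroid hormone T3 within the cell, was higher on every OSKM array. Its signal was 103 ± 10.5 in untreated CMPs, 552 ± 55.3 at day 4, 291 ± 29.2 at day 6 and 515 ± 51.5 at day 8. Days 4 and 8 differed by less than the error of their difference, and day 6 was lower than both beyond the errors: day 6 fell by 0.99 ± 0.20 against day 4, and day 8 was 0.81 ± 0.20 above day 6. Against control the gene was 5.37-, 2.70- and 4.73-fold higher. With 1 array a day, a dip on a single array has no replicate to set it against.

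Adrb3, the β3-adrenoceptor through which noradrenaline reaches rodent fat cells, was read by 2 probes that differed in size of change. Probe 1 gave 134 ± 13.6, 69.5 ± 7.53, 237 ± 23.9 and 732 ± 73.3 in control and at days 4, 6 and 8. Probe 2 gave 22.8 ± 3.60, 20.1 ± 3.54, 27.8 ± 4.13 and 50.4 ± 5.78, closer to background. Both were lowest at day 4 and highest at day 8, but the day 8 difference from control was 2.38 ± 0.21 for probe 1 and 1.07 ± 0.28 for probe 2. For probe 2 the control value overlapped those of days 4 and 6 within their errors, so the drop at day 4 rests on probe 1. Averaged over both probes, Adrb3 was at -0.56 ± 0.20 at day 4, 0.50 ± 0.19 at day 6 and 1.72 ± 0.17 at day 8 (3.30-fold). From day 4 to day 8 this average rose 4.86-fold, the 95th highest rise of all genes. Over those days probe 1 rose 9.96-fold and probe 2 2.37-fold, and the errors of the average leave out this gap between probes.

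Among the regulators, Prdm16, the zinc finger factor that steers progenitors to the brown fat fate, stepped up once and then held. Its signal was 20.1 ± 3.09 in untreated CMPs and 324 ± 32.5, 331 ± 33.2 and 308 ± 30.9 at days 4, 6 and 8. The OSKM arrays overlapped within their errors, at 16.1-, 15.8- and 14.5-fold over control (log2 4.01 ± 0.27, 3.98 ± 0.27 and 3.86 ± 0.27).

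Ppargc1a encodes PGC-1α, the coactivator that links adrenergic signals to mitochondrial genes. Its probe 1 read 2.30 in untreated CMPs, below background, and 44.2 ± 5.03, 90.9 ± 9.44 and 75.9 ± 7.94 at days 4, 6 and 8. This gives at least 4.23-, 8.32- and 6.86-fold over control. Probe 2, 2002 bases nearer the 3′ end of the gene, read 2.31, 2.38, 5.17 and 2.32 and was not above background on any array. The change in Ppargc1a therefore rests on 1 probe of 2.

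Ppargc1b, for the related coactivator PGC-1β, was detected close to background. It read 2.73 in control, below background, and 15.3 ± 3.28, 25.1 ± 3.97 and 19.1 ± 3.38 at days 4, 6 and 8, at least 1.46-, 2.30- and 1.73-fold over control. All 3 OSKM values lay near the dimmest detected signal, and day 6 was above day 4 by 0.65 ± 0.38. Its probe, on chromosome 18 and not printed, holds 5 tandem copies of a 4-base unit.

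**Figure D2:**
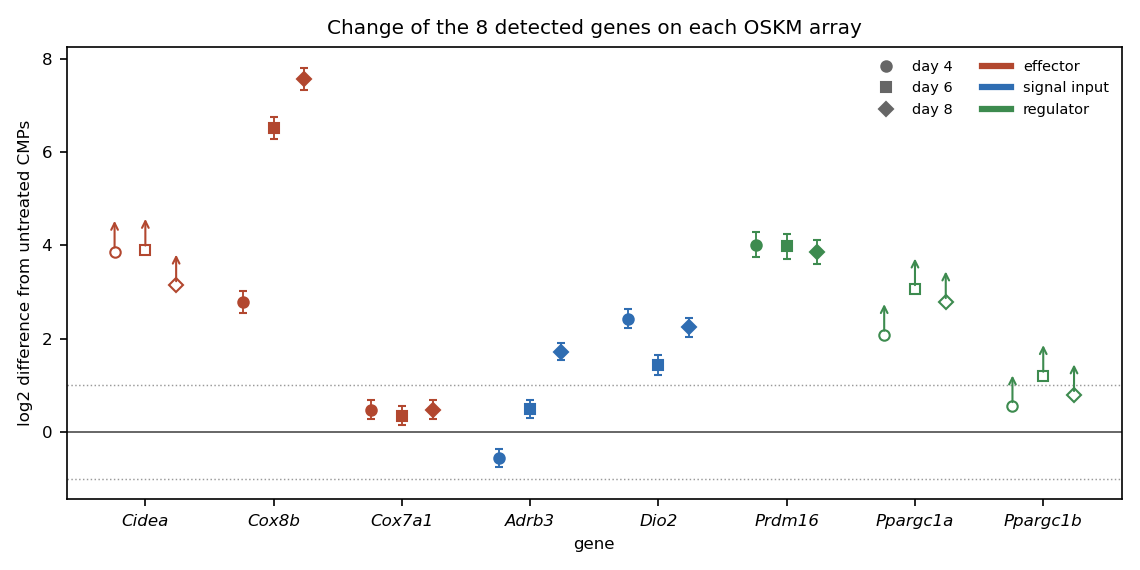
Log2 difference from untreated CMPs for the 8 detected genes at day 4 (circles), day 6 (squares) and day 8 (diamonds). Filled points have errors of 1 SD, open points with arrows are lower bounds because the control was below background, and dotted lines mark 2-fold. Cox8b reached 7.57 and Adrb3 moved from -0.56 to 1.72, whereas Prdm16 stayed between 3.86 and 4.01.

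Counted at a 2-fold threshold, 5 of the 10 genes were higher at day 4 (Cidea, Cox8b, Dio2, Prdm16 and Ppargc1a), where 9.74% of all genes were, and 0 were lower, where 8.12% of all genes were. At day 6 there were 6 higher, with Ppargc1b added (10.8% of all genes), and 0 lower (9.78%). At day 8 there were again 6 higher, now with Adrb3 and without Ppargc1b (11.9% of all genes), and 0 lower (10.5%). Cidea, Ppargc1a and Ppargc1b passed the detection filter only through the OSKM arrays, so the direction of their change was fixed in advance. They are included in the counts above but give them no added weight. Of all genes, 552 (3.32%) had the same pattern of no detection in control and detection on all 3 OSKM arrays. Among the 5 genes detected on all 4 arrays, Cox8b, Dio2 and Prdm16 were higher at each time and Adrb3 at day 8, and Cox7a1 passed at none, where 8.38%, 9.42% and 10.2% of all genes with that detection were higher at days 4, 6 and 8. From day 4 to day 8, 2 of the 10 genes rose at least 2-fold, Cox8b and Adrb3 (3.52% of all genes), and 0 fell (3.12%). These are bulk RNA values, in which more cells of a type and more RNA per cell cannot be told apart.

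Values close to background depended on how background was handled. With a normexp background correction and quantile normalization, which shrinks dim signals by construction, the day 8 difference was 0.97 for Cidea and 0.96 for Ppargc1a, both then under 2-fold, as was Ppargc1a at day 4 (0.67). In the same setting Prdm16 stood at 2.06, Adrb3 at 1.05 and Cox8b at 5.99, and Ppargc1b at day 6 was at 0.29. Of the other genes named below, Ucp2, Ucp3, Cox6a2, Mecom, Lhx8, Ntrk3, Tmem26, Cited1, Agt, Psat1, Nrg4, Bmp8b, Adcy5, Gatm, Tnni3, Nppb, Myl2, Myl7 and Coro1a also went under 2-fold in that setting, with Ucp2 at 0.80 and Ucp3 at 0.62. This left 0 of the 10 detected cardiomyocyte markers at least 2-fold higher. Median scaling took Mecom to 0.79, Prkar2b to 0.86, Bmp8b to 0.91 and Coro1a to 0.86, all under 2-fold. It took Adrb1, Dio3 and Pprc1 past 2-fold lower, at -1.13, -1.18 and -1.02. Quantile normalization alone took Mecom to 0.81, Bmp8b to 0.94 and Coro1a to 0.91, and the fall of Eng to just under 2-fold. It also took Adrb1 and Dio3 past 2-fold lower, at -1.14 and -1.17.

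**Figure D3:**
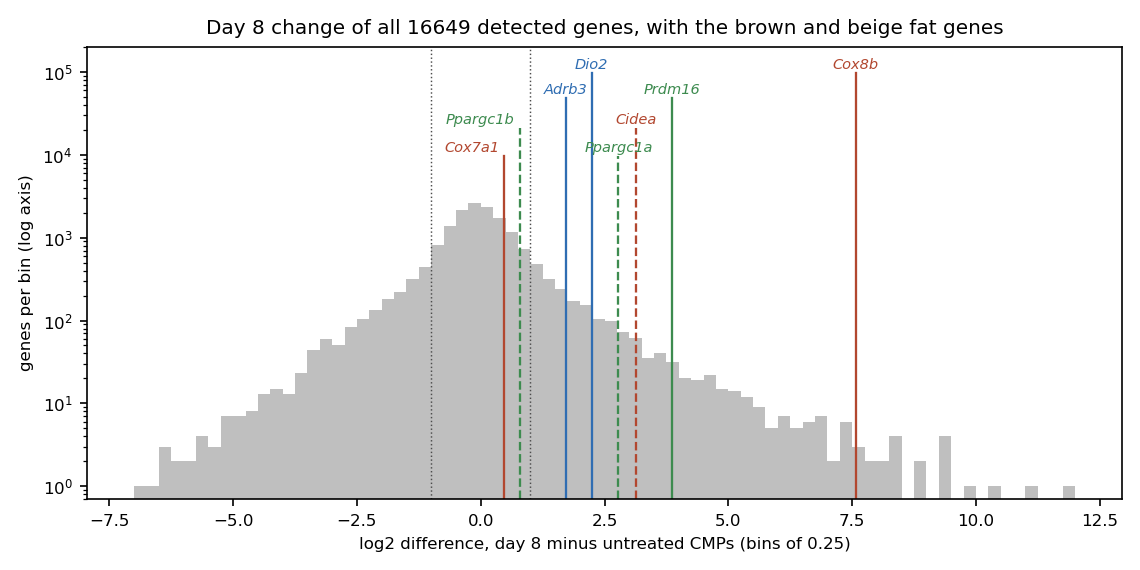
Number of genes (log axis) by log2 difference between day 8 and untreated CMPs for all 16649 detected genes, in grey, with the 8 detected brown and beige fat genes as lines (dashed where the value is a lower bound). Dotted lines mark 2-fold. Cox8b at 7.57 lay in the far upper tail and Cox7a1 at 0.47 near the middle.

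The general adipocyte markers on the same arrays give the setting for these changes. All 13 were detected and at least 2-fold higher at day 8, where 11.9% of all genes were, with a median log2 difference of 5.78. Among them were Cfd (at least 3572-fold), Adipoq (at least 2165-fold) and Gpd1 (1293-fold). The summed log2 level of the 13 was 3.88, 5.92, 8.38 and 9.33 in control and at days 4, 6 and 8. Between days 4 and 8, 11 of the 13 rose at least 2-fold (3.52% of all genes). Cox8b and Adrb3 rose over the same days. Prdm16 and Dio2 did not, and Cidea was 1.65-fold lower at day 8 than at day 4. The part of the adipocyte markers in these results was not tested.

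Because Cox8b and Cox7a1 are also muscle isoforms, markers of heart and skeletal muscle were read beside them. At day 8, 11.9% of all genes were at least 2-fold higher and 10.5% lower. Of 13 cardiomyocyte markers, 5 were detected in control and 9 on each OSKM array, with a summed log2 level of 3.60 in control and 2.43, 2.86 and 2.24 at days 4, 6 and 8. On the log2 scale, 4 were higher at day 8 (Tnni3 by at least 1.71, Nppb by 1.67, Myl2 by 1.65 and Myl7 by at least 1.43). Tnnt2 fell by 1.60 on that scale, while Actn2, Ttn and Pln were below background on all 4 arrays. Skeletal muscle markers stood at 2.55 in control and -0.35, -0.91 and -1.15 afterwards, with Acta1 falling by 4.46 and Myod1, Myf5, Myog and Myh4 not detected on any array. The summed level, which the brightest probes carry, was thus lower after OSKM for both muscle lists, whereas the median day 8 difference of the 10 detected cardiomyocyte markers was 1.42 (0.66 from bounds). The part of muscle-type expression in the Cox8b change was not tested. Mesenchymal markers, which check the labelled cell type, were all 9 detected on every array. Their summed level, which the brightest probes carry, was 10.3 in control and 10.1 at day 8, and the median day 8 difference was -0.23. At day 8, 2 were at least 2-fold higher, Ly6a (Sca-1, 6.47-fold) and Nt5e (4.29-fold). Another 2 were lower, Thy1 (3.43-fold) and Eng (2.28-fold). Leukocyte markers went from -0.07 to 0.45 by day 8. Of 7 detected, 1 was at least 2-fold higher (Coro1a, 2.18-fold) and 0 were lower. With quantile normalization or median scaling, 0 were higher and 1 was lower. Endothelial markers went from 0.94 to 0.17 by day 8, with a median difference of -1.48 (-1.33 from bounds). Of 6 detected, 0 were higher and 3 lower, among them Cdh5 (at least 11.9-fold) and Tek (6.48-fold).

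Each gene was next set beside its closest relatives, read by their own probes and compared only as changes. For scale, 11.9% of all genes were at least 2-fold higher and 10.5% lower at day 8. In the uncoupling protein family, Ucp2 and Ucp3, which are expressed well beyond brown fat, were 4.02-fold (log2 2.01 ± 0.27) and 3.24-fold (1.69 ± 0.26) higher at day 8 while Ucp1 was not detected. In the CIDE family, Cidec, which builds the large droplet of white adipocytes, was at least 467-fold higher at day 8 and at least 1.29-fold at day 4, later than Cidea, and Cideb was at 0.90 ± 0.18. The general subunit Cox8a did not follow Cox8b, at -0.02 ± 0.14, and Cox7a2 and Cox7a2l were at -0.33 ± 0.20 and -0.25 ± 0.12. Over the 14 detected cytochrome c oxidase subunits other than Cox8b and Cox7a1, 1 was at least 2-fold higher (Cox6b2, 1.77) and 2 lower (Cox4i2 fell by 1.69 and Cox6a2 by 1.00), with a median of -0.19 (0.06 after quantile normalization). Beside the undetected Elovl3, the elongases Elovl7 and Elovl6 were higher by 2.57 ± 0.24 and 1.36 ± 0.20, Elovl4 was at 0.94 ± 0.15, Elovl1 and Elovl5 were at -0.54 ± 0.14 and -0.59 ± 0.20, and Elovl2 was not detected.

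The relatives of the signalling and regulatory genes were read in the same way at day 8. Adrb1 was at least 1.82-fold lower. Dio1 was at least 1.68-fold higher, and Dio3, which inactivates thyroid hormone, was at -0.92 ± 0.24. Mecom, the nearest relative of Prdm16, was at least 2.07-fold higher, and Pprc1, the third PGC-1 type coactivator, was at -0.76 ± 0.21.

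**Figure D4:**
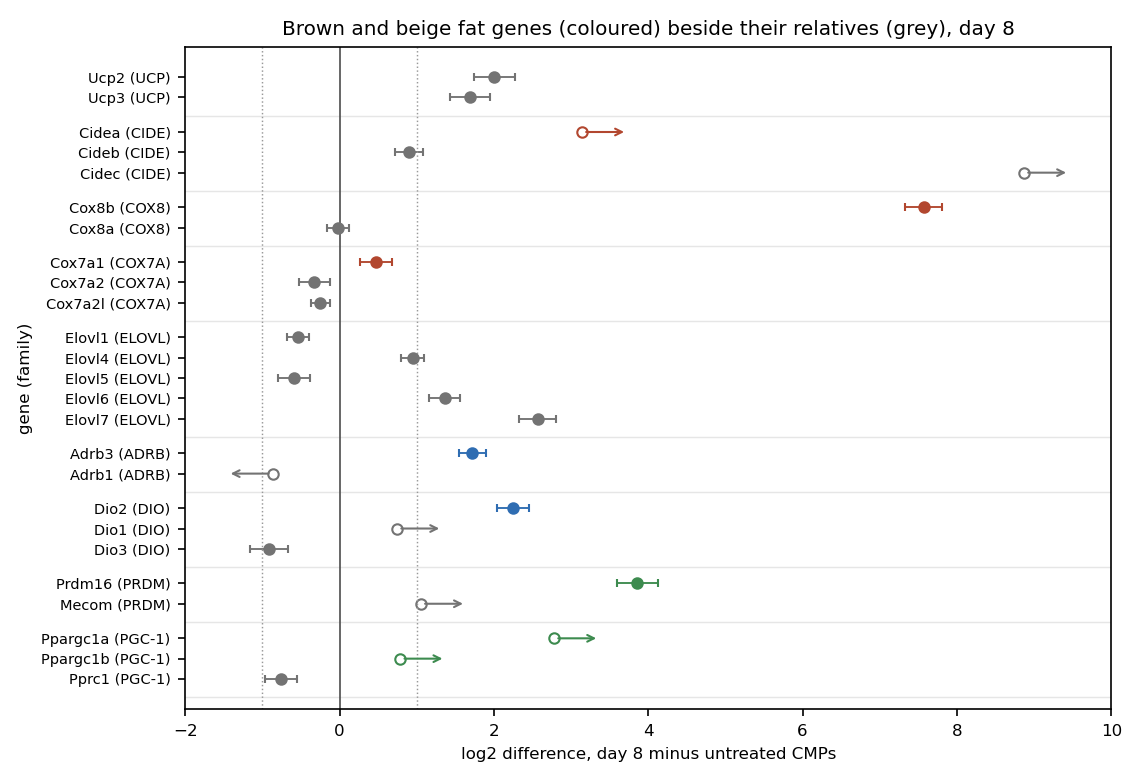
Log2 difference between day 8 and untreated CMPs for the detected brown and beige fat genes (coloured by role) and their relatives (grey), by family, with errors of 1 SD. Open points with arrows are bounds and dotted lines mark 2-fold. Cox8b at 7.57 stood beside Cox8a at -0.02, and Cidec lay at 8.87 or above.

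Further genes of the thermogenic programme were counted beside all genes, of which 11.9% were at least 2-fold higher and 10.5% lower at day 8. Of 33 other brown and beige regulators detected, 5 were at least 2-fold higher at each time (9.74%, 10.8% and 11.9% of all genes). At days 4, 6 and 8, 3, 0 and 1 were lower (8.12%, 9.78% and 10.5% of all genes). The median of the 33 was 0.24 at day 8. With median scaling 4 were higher and 4 lower at day 8 (8.90% and 15.8% of all genes), and the median was -0.03. The highest were Pparg, the master regulator of all adipocytes (3.84 ± 0.06), Zfp423, a preadipocyte factor known to hold back thermogenic genes (3.37 ± 0.13), and Klf15 (2.39 ± 0.21), while Lhx8 was at least 2.25-fold lower. Among 24 detected brown fat-selective effectors, 6 were higher and 3 lower at day 8, with a median of 0.15 (-0.12 with median scaling). Slc36a2, an amino acid transporter used as a brown adipocyte surface marker, was at least 157-fold higher at day 8, and at day 4 it was not detected, so it rose in the same interval as Cox8b. Kcnk3, a potassium channel enriched in brown fat, was at least 15.9-fold higher, and Fabp3, the fatty acid carrier of oxidative tissue, was 8.17-fold higher. Mpzl2 and Ntrk3 were lower, by 9.55-fold and at least 3.72-fold.

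Of 12 beige markers detected, 4 were higher and 3 lower at day 8, where 11.9% and 10.5% of all genes were. Ear2 (at least 24.0-fold, from a ribonuclease family with near-identical copies that a probe may not separate), Tmem26 (at least 2.98-fold) and Cited1 (2.68-fold) were higher, and Cd40 (8.72-fold) and Shox2 (at least 7.15-fold) were lower. White fat-biased genes had 3 higher and 2 lower of 7, with Rbp4 at least 692-fold, Retn at least 147-fold and Agt 2.46-fold higher, Tcf21 25.1-fold and Psat1 2.24-fold lower and leptin (Lep) not detected. Among 9 secreted factors, 4 were higher and 3 lower (2 and 4 with median scaling), with Fndc5 42.0-fold, Nrg4 at least 5.94-fold and Bmp8b at least 2.26-fold higher and Cxcl14 and Bmp4 11.5- and 9.46-fold lower.

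Genes upstream and downstream of the receptor and the hormone were read next, beside the 11.9% of all genes higher and 10.5% lower at day 8. Of 32 detected genes of adrenergic and cAMP signalling, 2 were higher (Pde3b, at least 2.51-fold, and Prkar2b, 2.18-fold) and 3 lower, among them Adcy5 (at least 4.14-fold) and Adcy4 (2.94-fold), which make cAMP. The count lower was 5 after quantile normalization (11.2% of all genes) and 6 with median scaling (15.8% of all genes), where 1 was higher. In thyroid hormone handling, 2 of 11 were higher, the lipogenic target Thrsp (at least 979-fold) and the receptor Thrb (5.41-fold), and 0 were lower. None of the 21 genes of mitochondrial biogenesis, the programme PGC-1 coactivators are known to drive, passed 2-fold in either direction at any time, and their median at day 8 was -0.12 (with median scaling, where the median was -0.39, Pprc1 did). In creatine and calcium cycling, the routes to heat without UCP1, Gatm was 3.19-fold higher and Alpl 4.81-fold lower among 11. In the PRDM family, Prdm6 was 10.2-fold higher and Mecom at least 2.07-fold higher among 10, and 0 were lower.

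**Figure D5:**
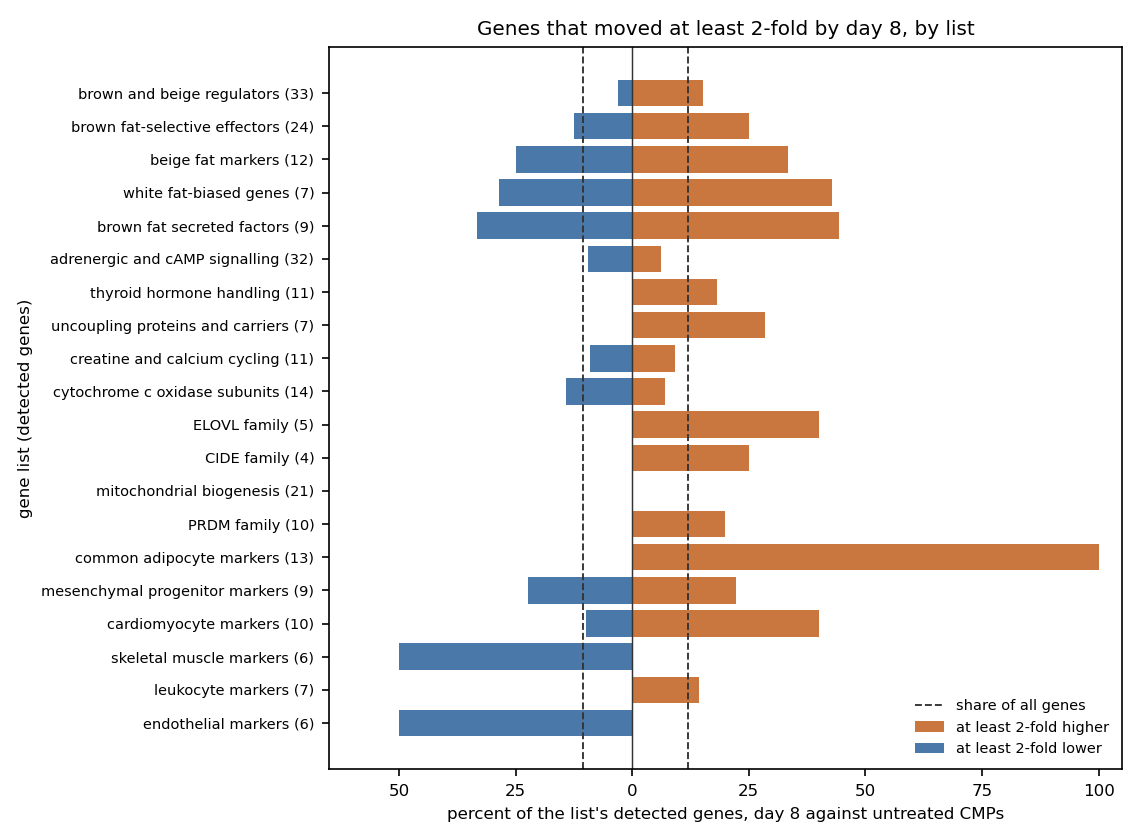
Percent of each list's detected genes (their number in brackets) at least 2-fold higher (right) or lower (left) at day 8 than in untreated CMPs, with dashed lines at the share of all genes, 11.9% and 10.5%. The common adipocyte markers were all higher, 13 of 13, while mitochondrial biogenesis had none of 21 in either direction.

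The genes whose 4-array course lay closest to the 3 widest-moving members were sought among all genes detected at day 8, by the distance between log2 values centred on each gene's mean. Nearest to Cox8b were Epyc, a matrix proteoglycan (distance 0.45, at 3.00, 6.11 and 7.43 at days 4, 6 and 8), S100a8 (0.80) and Dgat2, which makes triglyceride (0.95). Cidea lay nearest to Penk (0.19), the cell cycle inhibitor Cdkn1c (0.27) and Osr2 (0.34), all lower at day 8 than at day 4, Cdkn1c from 5.77 to 4.68. Ppargc1a lay nearest to Kcnk3 (0.18), Rgs13 (0.25) and Lrrc17 (0.32). The courses of Cidea, Ppargc1a, S100a8, Kcnk3 and Rgs13 include control values below background, taken as read, so the choice of Cidea and Ppargc1a and these distances rest on undetected signals. With 4 arrays and 16649 genes, close courses are to be found for almost any gene, and the distances are given as a description.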

How the data were processed

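CMPs and OSKM-CMPs were profiled by the study on SurePrint G3 Mouse 8 × 60K one-colour arrays (Cy3), 1 array per condition. The deposited scanner files hold processed signal intensity per spot, which the authors obtained with Agilent Feature Extraction (version 9.5.3 per the labels, 10.7.3.1 per the file headers), with an error and flags for background and saturation. The deposited series table holds log2 values that the authors normalized in GeneSpring. These equalled the log2 processed signals up to a constant per array, and were an alternative.

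Here, 3671 control spots of 62976 and flagged outlier spots were left out, and no spot was saturated. Spots of a probe were averaged on the log2 scale, and the 75th percentile of each array's probe values was then subtracted. Of 55681 probes, 35532 were well above background on at least 1 array and were kept. Probes were named by accession (26762), symbol (3819) or older synonym (639) through RefSeq, 24461 stayed unnamed, and probes of a gene were averaged. Before that average, a probe below background on an array was raised there to the array's dimmest detected signal if it read lower. A change was called at 2-fold with no test, since nothing was replicated. The calling step was tested on simulated data, with the control's detection on every array and planted changes well past 2-fold. Bounds of genes undetected only in control, and changes close to 2-fold, were therefore not tried. Named from each of 20 gene lists were up to 3 of the largest rises and 2 of the largest falls at day 8, and the relatives of each member, of which 1 is not reported here. Members and lists were chosen with earlier results of these data known. Alternatives were quantile normalization, normexp (limma 3.58.1, offset 50), median scaling, the authors' values, no floor, the brightest probe, other detection filters, and thresholds of 1.5- and 4-fold. Python 3.11.15 and R 4.3.3 were used.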

Additional observations from a re-analysis of the deposited data

How the results depend on the processing

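No paired analysis was possible because no condition has a second array. Of 244 values of single genes under other settings, 193 moved by less than the error of the difference, 51 by more, and no called difference changed sign. The single value that changed sign was that of Cox7a1 between days 4 and 8, which was near 0. Many of the 193 values could not move. The authors' values differ from those used here by a constant per array, and the floor, the detection filters and the brightest probe change only some genes. The count of 193 is therefore no measure of stability. Keeping only probes detected on all 4 arrays left 3 genes at least 2-fold higher at day 4 and 3 at day 6, because Cidea, Ppargc1a and Ppargc1b were then not tested. With a 1.5-fold threshold, 1 gene, Cidea, was lower at day 8 than at day 4. The other counts stayed within 1.5 times. Dim signals limit Cidea, Ppargc1a, Ppargc1b, Ucp1 and Elovl3, for which control values are bounds or nothing was detected. Control signals of Prdm16 (20.1) and Cox8b (25.7) were dim too, so the size of their folds also depends on background handling. With normexp the log2 difference went from 3.86 to 2.06 for Prdm16 at day 8 and from 2.78 to 1.49 for Cox8b at day 4.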
